A study of Mus musculus with 12 samples.

Results

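Knockdown of the zinc importer ZIP10 alone was compared with a control siRNA in differentiating G1E-ER4 cells, across the 11379 of 55487 listed genes that had a mean of at least 1 TPM (a transcript level scaled for gene length and depth) over the libraries used. G1E-ER4 is an established mouse line of red cell progenitors in which the endogenous GATA1 is missing and an introduced form is switched on by estradiol. Cells were nucleofected with siRNA in 2 rounds 24 h apart, 100 nM β-estradiol was added with the later round to start differentiation, and RNA was taken 24 h later. The siControl group received a control siRNA and the siZIP10 group an siRNA treatment against ZIP10, the product of Slc39a10; neither received a chelator, and each had 3 libraries labelled as biological replicates. The other 2 groups received the same siRNAs and, from the start of differentiation, 25 µM of the chelator DTPA; they enter only where named (siControl plus DTPA, 2 libraries used; siZIP10 plus DTPA, 3 libraries). The labels name no other siRNA against ZIP10 and no rescue, so an effect of lost ZIP10 cannot be told apart from an off-target effect of the siRNA. Neither ZIP10 protein nor cellular zinc is among the measurements used here. The labels do not say whether replicates came from separate cultures, so the p-values measure the spread between these libraries.

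ZIP proteins move zinc into the cytoplasm from outside the cell or from vesicles, and ZnT proteins move it the other way. Free zinc in the cytoplasm activates MTF1, a transcription factor that binds metal response elements and switches on the zinc-binding metallothioneins and the exporter ZnT1. GATA1 drives red cell maturation: globins, heme enzymes and membrane proteins are switched on, cell division slows and stops, and organelles are cleared. Zinc is needed by many proteins of this programme, GATA1 itself included, because its DNA-binding fingers hold zinc.

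The 6 libraries held between 19622900 and 24079200 reads as recovered from the TPM values, and within a group libraries correlated at r = 0.989 to 0.990 across genes. The values of siZIP10 replicate 1 also appear, for all 55487 genes, under the label siControl plus DTPA replicate 3, with a heading that names siZIP10; that copy was left out. Without siZIP10 replicate 1 the comparison called 1187 genes higher and 1662 lower, against 1493 and 1987 with it. The erythroid markers Hba-a1, Hbb-bs, Slc4a1, Epor, Klf1, Alas2, Epb42, Ermap and Rhag were among the tested genes, from 5.78 TPM for Epb42 to 21531 TPM for Hbb-bs in siControl. Of other lineages, 11 of 12 lymphoid, 9 of 14 myeloid, 7 of 14 megakaryocyte and 6 of 11 mast cell and basophil markers were at 0 in all 6 libraries, including Mpo, Cpa3 and Ppbp. Their summed levels were 16.3 to 17.8 TPM in siControl and 17.4 to 18.9 TPM in siZIP10 for the megakaryocyte list, 2.33 to 3.40 and 2.98 to 5.16 TPM for the myeloid list, 0.296 to 1.08 and 0.583 to 1.61 TPM for the lymphoid list, and 39.3 to 44.0 and 34.9 to 35.6 TPM for the mast cell list, where nearly all of it was Gata2. Mitochondrial ribosomal RNA, which a poly(A) library captures only in small part, made up 0.262% to 0.282% of TPM in siControl and 0.372% to 0.421% in siZIP10; its part in the results below was not tested.

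Slc39a10 (chromosome 1, 46807544 to 46892852, minus strand, mm10) was lower in every siZIP10 library. Its level was 2.78, 2.31 and 2.78 TPM in the siControl libraries and 0.539, 0.507 and 0.837 TPM in the siZIP10 libraries. The groups did not overlap, and the siZIP10 mean was 23.9% of the siControl mean. On the scale of log2(TPM + 1) used for every test, the change was -1.16 ± 0.10 (standard error, SE), with a limma adjusted p of 2.37e-05. That scale understates changes at such low levels, and with a pseudocount of 0.1 the change was -1.93. With the repeated library kept under its siControl plus DTPA label, which puts the same values in 2 groups, the estimate was the same and the adjusted p was 0.325.

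The other zinc transporters that passed the test rose, but calls were about as frequent among them as among all tested genes. Of 9 tested ZIP genes, Slc39a6 and Slc39a8 were called higher, Slc39a10 alone was called lower and 6 were not called. Over all tested genes 30.6% were called. Slc39a6, which encodes the importer ZIP6, the closest relative of ZIP10, was at 8.97, 8.61 and 8.00 TPM in siControl and 13.5, 11.4 and 13.4 TPM in siZIP10. These groups did not overlap, with a log2 change of 0.53 ± 0.07 and an adjusted p of 0.000272. Slc39a8, encoding ZIP8, was the most abundant ZIP transcript in TPM, at 339 ± 3.7 TPM (standard deviation, SD, n = 3) in siControl and 380 ± 11 TPM in siZIP10.

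Of 6 tested ZnT genes, 2 rose, none fell and 4 were not called, against 13.1% of all tested genes called higher and 17.5% lower. Slc30a1 (chromosome 1, 191906767 to 191913247), which encodes ZnT1, the exporter at the cell surface, was at 85.9, 80.4 and 81.2 TPM in siControl and 112, 112 and 120 TPM in siZIP10. All 3 siZIP10 libraries lay above all siControl libraries, and the log2 change was 0.47 ± 0.04 (adjusted p 2.10e-05). Slc30a10, another exporter of the plasma membrane that also carries manganese, rose by 0.15 ± 0.04 on the log2 scale.

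The metallothionein Mt1 was at 1627, 1804 and 1689 TPM in siControl and 1845, 2106 and 2039 TPM in siZIP10, and its neighbour Mt2 at 1963, 2108 and 2046 TPM and 2365, 2497 and 2377 TPM. In both genes the groups did not overlap. Mt1 passed the test (log2 change 0.23 ± 0.05, adjusted p 0.00875, and 0.0588 after quantile normalization), whereas Mt2 did not in the model of all 4 groups (0.24 ± 0.11, adjusted p 0.122). The Mt2 estimate was the same when only siControl and siZIP10 were fitted, where its adjusted p was 0.00286. Mtf1, which encodes the zinc sensor itself, was not called (-0.08).

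**Figure D1:**
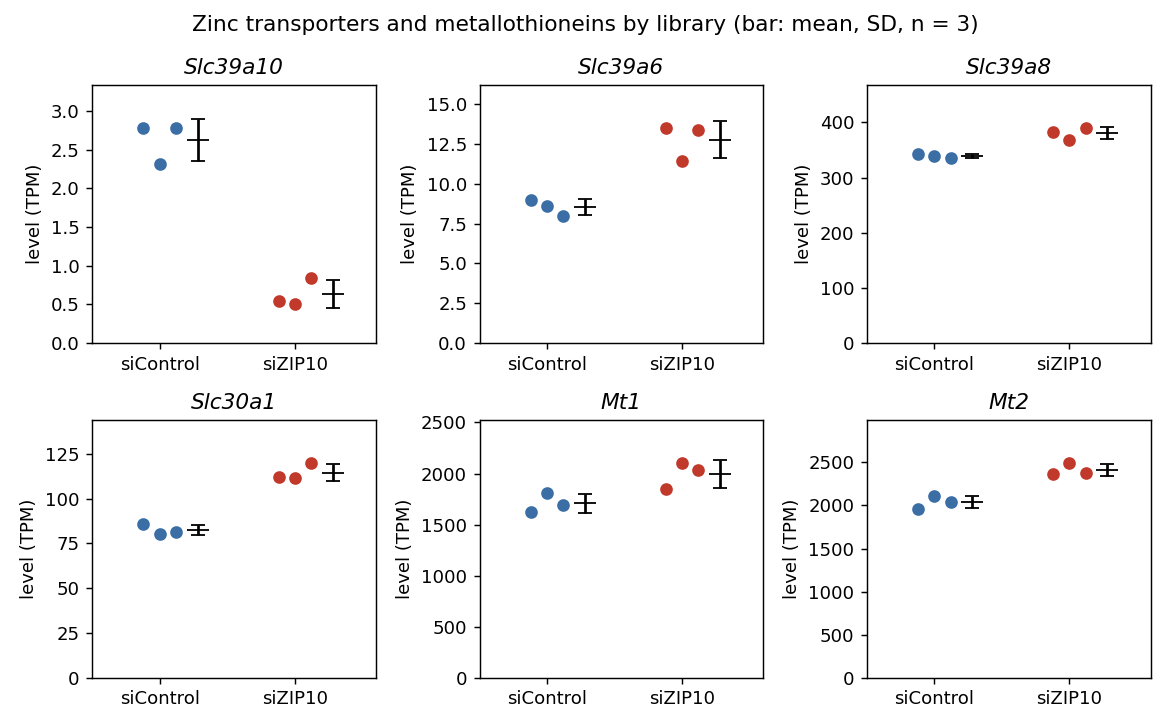
Level in TPM (vertical axes, starting at 0) of 6 zinc genes in the 3 siControl (blue) and 3 siZIP10 (red) libraries, with the group mean and SD in black. Slc39a10 is lower and the other 5 genes are higher in every siZIP10 library than in any siControl library.

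The promoters of the 3 genes tied most closely to zinc sensing are shown because all 3 carry the core of the metal response element. The search was for TGCACNC or TGCGCNC on both strands in RefSeq windows on GRCm38.p6 (mm10) from 250 bases before to 50 bases after the start of the gene. This core is common: 37.3% of the 6218 tested genes with a window held it. Capitals mark the matches.
Mt1, chr8:94178839-94179138, plus strand: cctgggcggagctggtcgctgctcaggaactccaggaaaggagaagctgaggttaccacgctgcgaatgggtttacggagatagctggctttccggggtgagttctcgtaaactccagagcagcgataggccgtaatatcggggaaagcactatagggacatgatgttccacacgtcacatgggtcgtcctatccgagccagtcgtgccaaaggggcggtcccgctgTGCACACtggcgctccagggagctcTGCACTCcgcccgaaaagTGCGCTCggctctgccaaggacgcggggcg
Mt2, chr8:94172368-94172667, plus strand: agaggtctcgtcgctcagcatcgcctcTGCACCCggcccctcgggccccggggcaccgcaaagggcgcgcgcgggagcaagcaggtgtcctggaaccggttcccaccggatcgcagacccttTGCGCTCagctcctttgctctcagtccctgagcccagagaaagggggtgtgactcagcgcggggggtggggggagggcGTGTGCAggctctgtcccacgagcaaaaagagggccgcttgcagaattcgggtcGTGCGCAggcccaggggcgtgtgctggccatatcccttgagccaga
Slc30a1, chr1:191906531-191906830, plus strand: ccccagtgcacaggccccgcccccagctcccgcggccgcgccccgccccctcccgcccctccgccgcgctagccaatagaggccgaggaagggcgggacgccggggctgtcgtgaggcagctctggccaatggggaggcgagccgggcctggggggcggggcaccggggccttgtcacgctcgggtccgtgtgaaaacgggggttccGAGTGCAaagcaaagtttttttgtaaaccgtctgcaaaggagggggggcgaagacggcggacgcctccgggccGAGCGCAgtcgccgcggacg
The windows held 3, 4 and 2 matches. Mt1 and Mt2 lie next to each other on chromosome 8 and in the same orientation.

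Across all tested genes, 1493 (13.1%) were called higher and 1987 (17.5%) lower at an adjusted p under 0.05, so that 30.6% of genes were called. The shares of 13.1% and 17.5% are the background for the list counts that follow. The median log2 change of all tested genes was -0.01. Most changes were small. With fold taken on TPM + 1, 642 of the higher and 908 of the lower genes changed by at least 1.2-fold, and 93 and 299 by at least 1.5-fold. At 2-fold or more on that scale the balance was 11 higher against 113 lower. The fold in TPM is larger at low levels: Tspo2, at 206% of control in TPM, was not among the 11. Higher genes made up 42.9% of calls, but 54.3% after quantile normalization, so the split of small changes depended on the scaling. Groups did not overlap for 43.7% of tested genes.

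Most of the large falls were in cell division genes. Of the 113 genes lower by at least 2-fold on TPM + 1, 79 were in one of the cell cycle lists and 34 in none. Over the 7 lists of mitosis, chromosome structure and DNA replication together, 158 of 174 tested genes fell, 1 rose and 15 were not called. The median gene of these lists stood at 52.7% of its siControl level. These lists, like the other gene lists here, had been drawn up with earlier results of these data known, so their direction is a description and not independent evidence. In bulk RNA, fewer dividing cells and less of these transcripts in each cell cannot be told apart.

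**Figure D2:**
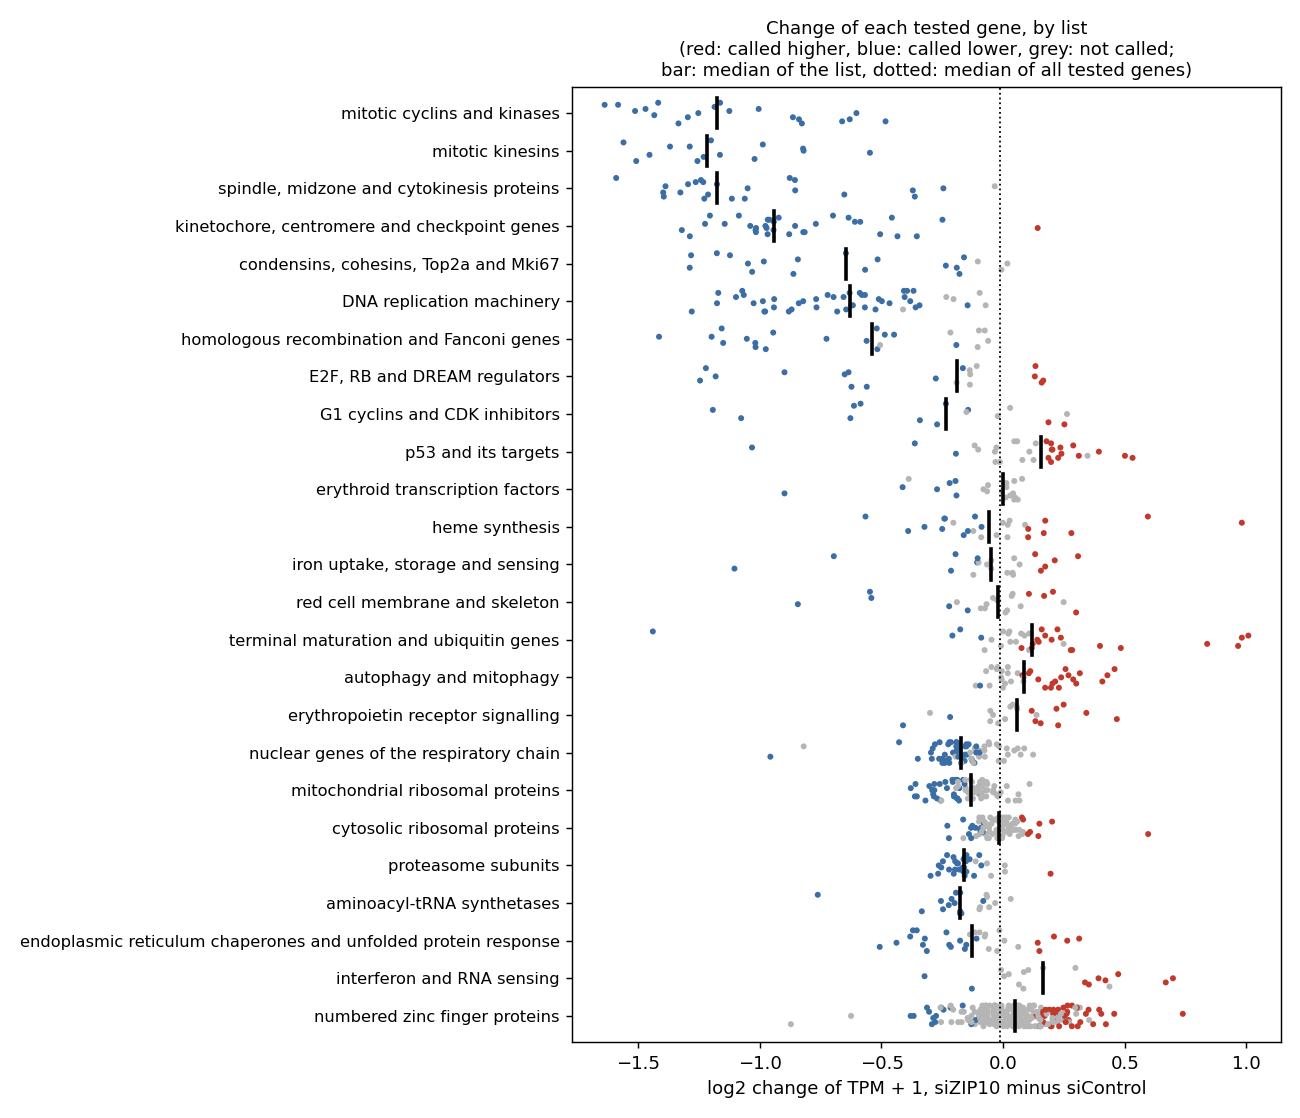
Log2 change, siZIP10 minus siControl, of each tested gene (points) in 25 lists (rows), coloured by call, with the median of each list as a black bar and the median of all genes as a dotted line at -0.01. The lists of mitosis and replication lie left of the line, to a median of -1.22 for the mitotic kinesins, while the lists of the respiratory chain, proteasome and mitochondrial ribosome are shifted by less than 0.2.

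All 20 mitotic cyclins and kinases fell, with a median log2 change of -1.17. Ccnb2, the cyclin B2 partner of CDK1, was at 94.9, 94.3 and 98.8 TPM in siControl and 33.0, 27.5 and 30.3 TPM in siZIP10, the largest fall of the list on the log2(TPM + 1) scale (-1.64 ± 0.15, adjusted p 2.53e-05). As a share of control, Pbk, a mitotic kinase, was lower still, at 30.2% against 31.5% for Ccnb2. Plk1, the kinase that drives entry into mitosis and centrosome maturation, was at 52.8, 59.8 and 58.5 TPM and then 19.4, 16.1 and 19.8 TPM (-1.58 ± 0.09). Cdk1, the catalytic subunit that starts mitosis, was at 16.8, 16.5 and 14.6 TPM and then 5.42, 4.92 and 5.48 TPM (-1.43 ± 0.13). None of these genes had overlapping groups.

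Within that list the size differed. Aurkb, of the chromosomal passenger complex, fell to 33.4% of control and Bub1b, of the spindle checkpoint, by 1.42 on the log2 scale. Ccnb1, the other B-type cyclin, was at 190, 177 and 180 TPM in siControl and 101, 101 and 102 TPM in siZIP10, which is 55.6% of control. Wee1, the kinase that holds CDK1 inactive, had the smallest log2 change of the 20 genes (-0.48). Cdc25c, the phosphatase that activates CDK1, fell too (-1.19).

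All 14 mitotic kinesins fell (median -1.22), from -0.55 for Kif24 to -1.56 for Kif20a, the motor of the central spindle. Kif2c, which takes microtubules apart at kinetochores, was at 19.0, 17.9 and 17.2 TPM in siControl and 6.38, 5.5 and 5.23 TPM in siZIP10. Of 23 spindle, midzone and cytokinesis genes, 22 fell (median -1.18) and Numa1, which anchors spindle poles and has roles outside mitosis, was not called (-0.03). Birc5, which encodes survivin, was at 66.1, 64.3 and 67.8 TPM and then 20.8, 22.6 and 20.4 TPM (-1.59 ± 0.08), and Hmmr, a spindle assembly factor, went from 61.5 ± 2.0 to 22.7 ± 0.97 TPM. No siZIP10 library reached a siControl library in any of these called genes.

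Of 33 kinetochore, centromere and checkpoint genes, 32 fell (median -0.94) and Zwint alone rose. Cenpf, a protein of the outer kinetochore, fell to 33.1% of control and Nuf2, of the NDC80 complex that grips microtubules, changed by -1.29. Zwint was far more abundant than the rest, at 421, 407 and 417 TPM in siControl and 463, 450 and 460 TPM in siZIP10 (0.14 ± 0.02, adjusted p 0.00061). Its kinetochore partners Zwilch (-0.96) and Knl1 (-1.14) both fell.

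Of 19 genes of the anaphase promoting complex and its regulators 13 fell, with a median of -0.18. The largest falls were outside the core complex. Cdc20, an activator, fell from 131, 130 and 135 TPM to 50.5, 50.2 and 49.7 TPM, the ubiquitin-conjugating enzyme Ube2c by 1.26, the separase gene Espl1 by 1.29 and the inhibitor Fbxo5 by 1.16, all on the log2 scale. The core subunit Anapc1 fell by 0.18. Anapc2, Anapc4, Anapc7, Anapc10 and Cdc26 of the core were not called, nor was Fzr1, the other activator (-0.13). Of 19 condensin, cohesin and related genes 16 fell, with Top2a, the topoisomerase that untangles chromosomes, at 157, 144 and 148 TPM and then 58.3, 61.0 and 63.7 TPM. The proliferation marker Mki67 went from 176, 168 and 179 TPM to 75.6, 75.4 and 79.0 TPM. The cohesin ring genes Smc1a (-0.18), Smc3 (-0.19) and Rad21 (-0.24) fell by less, and Stag1, Stag2 and Wapl were not called.

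Many promoters of the genes that fell most share a short element, and 3 of them are shown for that reason. The cell cycle genes homology region (CHR, TTTGAA or TTCGAA on either strand) is the site through which the DREAM and MuvB complexes hold such genes off outside of late cell cycle. Capitals mark it in windows from 110 bases before to 50 bases after the start of the gene (RefSeq, GRCm38.p6).
Ccnb2, chr9:70421505-70421664, minus strand: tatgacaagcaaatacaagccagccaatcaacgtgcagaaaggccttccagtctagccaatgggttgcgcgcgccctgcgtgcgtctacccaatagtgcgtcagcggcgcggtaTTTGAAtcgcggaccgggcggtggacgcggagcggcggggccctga
Plk1, chr7:122159325-122159484, plus strand: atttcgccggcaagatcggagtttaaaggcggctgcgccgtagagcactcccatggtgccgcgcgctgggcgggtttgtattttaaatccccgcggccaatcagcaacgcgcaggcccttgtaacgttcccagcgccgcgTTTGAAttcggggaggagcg
Cdk1, chr10:69352863-69353022, minus strand: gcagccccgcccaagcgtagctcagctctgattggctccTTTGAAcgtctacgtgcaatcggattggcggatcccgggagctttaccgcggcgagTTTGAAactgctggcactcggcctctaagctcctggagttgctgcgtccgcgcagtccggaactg
In the full windows of 300 bases, the element stood in 13.9% of the 6218 tested genes with a window in 11.5% of those called higher and in 20% of those called lower. Among genes lower by at least 2-fold it stood in 49 of 79 windows (62.0%). By list it was in 10 of 14 windows of mitotic cyclins and kinases, 11 of 13 of mitotic kinesins, 10 of 17 of spindle genes and 14 of 25 of kinetochore genes. A match is letters only and was not shown to be a bound site.

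Most DNA replication genes fell. Of 47 genes 42 fell, none rose, and the median was -0.63. Cdt1, which loads the MCM helicase onto DNA, was at 7.16, 8.33 and 6.52 TPM in siControl and 3.44, 3.33 and 2.21 TPM in siZIP10, Mcm5 at 104, 104 and 104 TPM and then 53.9, 47.1 and 46.8 TPM, and Mcm6 at 44.5, 42.8 and 43.7 TPM and then 21.0, 20.9 and 20.9 TPM. These groups did not overlap in any of the 3 genes. Cdc45, which joins the MCM ring to form the active helicase, had the largest fall of the list on the log2(TPM + 1) scale (-1.28 ± 0.11), while Gins3, another subunit of that helicase, was not called (-0.23). Pcna, the sliding clamp, fell to 69.7% of control, and the clamp loader genes Rfc1 (-0.07) and Rfc3 (-0.20) were not called.

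The promoters of 3 replication genes are shown because they hold an E2F motif, here TTTNNCGC on either strand. E2F factors switch on genes of DNA synthesis at the start of S phase. Capitals mark the matches in windows of the same kind as for Plk1.
Clspn, chr4:126556870-126557029, plus strand: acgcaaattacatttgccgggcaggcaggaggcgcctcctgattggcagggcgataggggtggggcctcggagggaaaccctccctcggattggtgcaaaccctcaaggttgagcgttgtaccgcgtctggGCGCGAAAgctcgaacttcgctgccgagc
Cdt1, chr8:122567905-122568064, plus strand: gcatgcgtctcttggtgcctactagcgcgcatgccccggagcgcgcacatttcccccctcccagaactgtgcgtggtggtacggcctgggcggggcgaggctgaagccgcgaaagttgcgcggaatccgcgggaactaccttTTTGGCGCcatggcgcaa
Mcm6, chr1:128359656-128359815, minus strand: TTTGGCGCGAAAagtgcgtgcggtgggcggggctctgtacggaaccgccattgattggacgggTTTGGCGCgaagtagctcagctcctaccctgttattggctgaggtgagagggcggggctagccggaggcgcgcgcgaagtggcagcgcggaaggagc
In the full windows, 13 of 32 replication genes with exactly 1 distinct window (40.6%) held the motif, against 10.3% of all such tested genes. The CHR stood in 5 of the same 32 windows, and the E2F motif in 1 of the 14 windows of mitotic cyclins and kinases. Clspn, a checkpoint adaptor at the fork, was at 11.0, 10.6 and 9.97 TPM in siControl and 3.96, 3.5 and 5.01 TPM in siZIP10.

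Many genes that supply DNA precursors and repair forks were lower too. Of 12 nucleotide genes 7 fell and 1, the mitochondrial thymidine kinase gene Tk2 (0.24), rose. Rrm2, the S-phase subunit of ribonucleotide reductase, went from 87.6, 85.1 and 83.4 TPM to 37.0, 33.4 and 32.6 TPM, while Rrm2b, the subunit that p53 induces, was not called (-0.12). Of 22 homologous recombination and Fanconi genes 16 fell and none rose (median -0.54). Rad51ap1, which assists strand exchange in recombination, fell to 33.0% of control, and Brca1 was at 26.5, 24.7 and 25.8 TPM and then 11.2, 12.1 and 13.2 TPM. Of 18 genes of DNA methylation and chromatin copying 11 fell. The largest change on the log2(TPM + 1) scale was that of Uhrf1 (-1.16), which brings DNMT1 to new DNA, and Dnmt1 went from 69.4, 66.0 and 69.3 TPM to 47.1, 48.2 and 47.6 TPM.

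**Figure D3:**
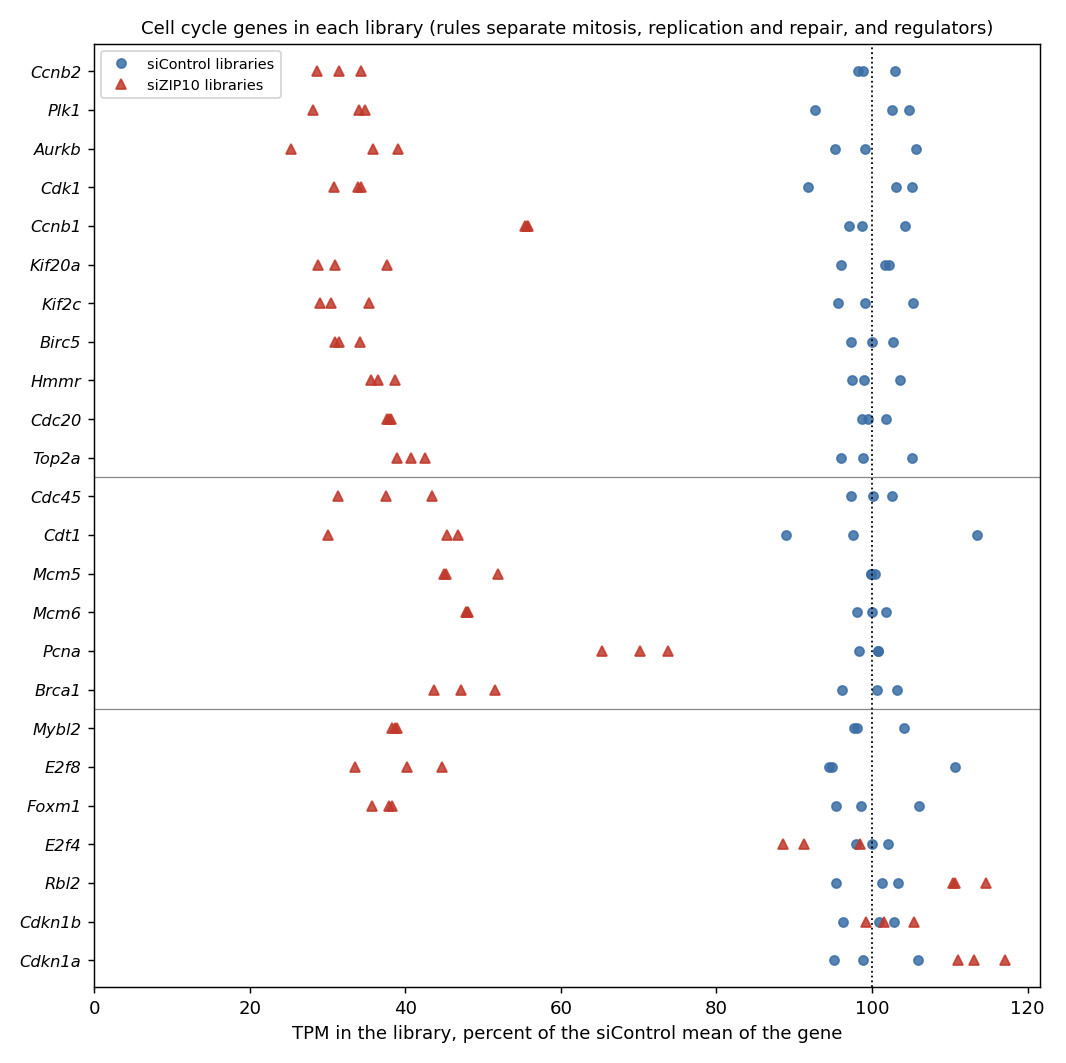
TPM of cell cycle genes in each library as a percent of the siControl mean (horizontal axis, from 0), with siControl libraries as blue circles and siZIP10 libraries as red triangles. Ccnb2 is at a mean of 31.5% and Pcna at 69.7%, and E2f4 and Cdkn1b overlap between groups.

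The regulators of the cycle moved unequally. Mybl2, which joins MuvB to turn on mitotic genes, was at 16, 16.1 and 17.1 TPM in siControl and 6.28, 6.35 and 6.39 TPM in siZIP10, Foxm1, its successor in G2, fell to 37.3% of control, and the atypical repressor E2f8 changed by -1.22. E2f1 (-0.62) and E2f2 (-0.90), the latter the main activating E2F of erythroid cells, fell as well. The repressor E2f4 was not called (-0.11). In all, 10 of 19 E2F, RB and DREAM genes fell and 4 rose. Those 4, the pocket proteins Rb1 and Rbl2, E2f3 and Tfdp2, changed by 0.13 to 0.16 and their count fell to 0 without siControl replicate 3 or siZIP10 replicate 3, to 1 without siControl replicate 2 and to 2 without siControl replicate 1, siZIP10 replicate 1 or siZIP10 plus DTPA replicate 1.

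Of 15 tested G1 cyclin and CDK inhibitor genes 9 fell and 2 rose. Cks1b, which guides CDKs and the SCF ligase to their substrates, fell from 175 ± 4.1 to 82.4 ± 4.5 TPM, and the cyclin E gene Ccne1 changed by -0.63. The CDK inhibitor p21, encoded by Cdkn1a, was at 162, 181 and 169 TPM in siControl and 190, 200 and 193 TPM in siZIP10, without overlap (0.19 ± 0.04, adjusted p 0.00433). Ccnd2, encoding cyclin D2, rose by 0.25. The inhibitor p27, encoded by Cdkn1b, which accumulates as erythroid cells leave the cycle, was at 246 TPM against 241 TPM and was not called.

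Replication histone genes were mostly below the filter: of 51 genes listed 18 were tested and 6 fell (median -0.24). Over all tested genes 17.5% were called lower. The count of 6 was 2 without siControl replicate 1 or siZIP10 replicate 3. The libraries came from poly(A) sequencing, so these values cover only histone transcripts captured that way. Its part in the low levels and in the falls was not tested.

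Genes of the p53 pathway tended upward by small amounts. Of 30 tested genes 14 rose and 3 fell, with a median of 0.16 against -0.01 over all genes. Bbc3, which encodes the death-promoting protein PUMA, was at 106, 122 and 113 TPM in siControl and 158, 168 and 157 TPM in siZIP10. Phlda3, an inhibitor of AKT, was at 54.9, 69.0 and 66.4 TPM and then 95.6, 92.0 and 87.7 TPM, and Zmat3, an RNA-binding p53 target, rose to 133% of control. In each the groups did not overlap. Mdm2 (0.18), Ccng1 (0.20) and Sesn1 (0.24) rose too, Trp53 itself was not called (0.05), and Gadd45b fell from 4.67 ± 0.94 to 1.79 ± 0.60 TPM. Among 22 BCL2 and caspase genes 6 rose and 2 fell, against 13.1% and 17.5% of all tested genes. Both kinds of member rose: Bax (0.24) and Bid (0.34) promote death, and Bcl2l1, which encodes BCL-XL and protects maturing erythroid cells, rose by 0.23. The 2 lower genes were Cycs (-0.37) and Casp2, whose call was lost without siControl replicate 1 or 2 or siZIP10 replicate 2.

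Among 22 tested erythroid transcription factors, 6 fell, none rose and 16 were not called, against 30.6% of all genes called, with a median of 0.00. Gata1 was at 2005, 2101 and 2095 TPM in siControl and 1561, 1502 and 1593 TPM in siZIP10, 75.1% of control (-0.41 ± 0.04, adjusted p 2.69e-05). These reads may come from the introduced estradiol-activated form, since the line lacks its own GATA1. Klf1, which drives adult globin and many red cell genes, was at 601, 697 and 690 TPM and then 574, 578 and 551 TPM (-0.22 ± 0.05), and Nfe2, a globin enhancer factor, fell to 87.5% of control. Tal1 (0.01), Lmo2 (0.04), Ldb1 (0.01) and Gfi1b (0.03), partners of GATA1, were not called, and the groups overlapped in Tal1 and Gfi1b.

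Heme genes did not move as one. Of 26 tested genes of heme synthesis, transport and breakdown 10 fell and 7 rose, with a median of -0.06. Over all tested genes 17.5% fell and 13.1% rose. The counts therefore do not describe the synthesis enzymes alone. Alad, whose zinc-holding enzyme joins aminolevulinic acid to porphobilinogen, fell and was at 515, 514 and 514 TPM in siControl and 364, 339 and 339 TPM in siZIP10 (-0.57 ± 0.03, adjusted p 1.86e-06). Ppox (-0.24) and the mitochondrial transporters Slc25a38 (-0.32) and Tmem14c (-0.25) fell as well. The first enzyme and the last rose: Alas2 was at 1992, 2075 and 2042 TPM and then 2369, 2235 and 2257 TPM (0.17 ± 0.03), and Fech, ferrochelatase, changed by 0.10. Hmox1, which breaks heme down, was at 153, 160 and 159 TPM and then 236, 248 and 230 TPM (0.59 ± 0.04). For Alad, Alas2 and Hmox1 the groups did not overlap.

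Globin values are uncertain where near-identical copies share reads. Hba-a1 was not called, at 11657 ± 1028 TPM in siControl and 10900 ± 276 TPM in siZIP10. Hbb-bs was at 20180, 22921 and 21491 TPM and then 25528, 27856 and 25392 TPM (0.29 ± 0.06, adjusted p 0.00475), and its change was 0.09 with an adjusted p of 0.549 after quantile normalization. Its copy Hbb-bt was at 3312, 3318 and 2043 TPM and then 6538, 3523 and 3436 TPM, with siZIP10 replicate 1 far above the rest, and was not called. The embryonic gene Hba-x fell from 5.41 ± 0.33 to 2.52 ± 0.44 TPM, while the embryonic gene Hbb-bh1 was not called (-0.04). Of the 9 tested globin genes 2 were called higher and 1 lower. The other of the 2 higher genes, Hbb-y, had overlapping groups, and its call was lost without any 1 library other than siControl replicate 1 or siZIP10 replicate 3.

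Genes of the red cell membrane and skeleton did not move as one. Of 22 membrane and skeleton genes 5 fell and 4 rose, against 17.5% and 13.1% of all tested genes. Their changes ran from -0.84 to 0.30, with a median of -0.02. The members of this list named below are some that fell and some that were not called. Slc4a1, encoding the anion exchanger band 3, was at 442, 452 and 442 TPM in siControl and 317, 296 and 300 TPM in siZIP10 (-0.55 ± 0.04, adjusted p 3.69e-06). Kcnn4, the calcium-activated potassium channel of red cells, went from 7.99, 8.23 and 8.92 TPM to 3.94, 4.03 and 4.74 TPM, and Piezo1, the mechanosensitive channel that opens upstream of it, fell to 68.2% of control. Sptb (-0.09) and Ank1 (-0.03), which build the skeleton, were not called. Blood group genes went both ways, 3 of 13 in each direction: Rhd fell by 0.69 on the log2 scale, while Rhag rose by 0.29 and Art4, the carrier of the Dombrock antigens, was at 166, 168 and 162 TPM and then 232, 228 and 232 TPM.

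Of 21 iron genes 6 fell and 5 rose, against 17.5% and 13.1% of all tested genes. Erfe, which encodes erythroferrone, the erythroblast hormone that lowers hepcidin, was at 19.0, 15.2 and 18 TPM in siControl and 8.83, 6.06 and 7.90 TPM in siZIP10 (-1.10 ± 0.14, adjusted p 0.000231). The iron exporter Slc40a1 (0.31) and the cytosolic aconitase Aco1 (0.21), which senses iron, rose. The ferritin light chain Ftl1, at 30842 TPM in siControl, rose by 0.16. Of 4 tested carbonic anhydrases, zinc enzymes that convert carbon dioxide, Car1 (-0.58) and Car2 (-0.15) fell and Car13 (0.36) rose.

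More genes of terminal maturation rose than fell. Of 35 tested, 18 rose and 4 fell, against 13.1% and 17.5% of all tested genes, with a median of 0.12. This list too was drawn up with earlier results of these data known, so its direction is a description and not independent evidence. Its members Ypel4, Tspo2, Fhdc1 and Tmem140 were among the 25 largest rises of the naming rule. Ypel4, of the yippee-like family, was at 40.8, 38.0 and 37.4 TPM in siControl and 78.9, 73.1 and 84.9 TPM in siZIP10 (1.01 ± 0.06, adjusted p 1.69e-06). Tspo2, an erythroid relative of the mitochondrial translocator protein, was at 10.3, 9.27 and 11.5 TPM and then 21.8, 21.2 and 21.0 TPM. Fhdc1, a formin-homology protein, was at 22.9, 23.8 and 22.2 TPM and then 48.3, 44.7 and 44.5 TPM. In each gene the lowest siZIP10 library was well above the highest siControl library.

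Ube2o, which clears unneeded proteins in reticulocytes, was at 107, 113 and 115 TPM in siControl and 157, 159 and 154 TPM in siZIP10, and Ube2h, a conjugating enzyme of the same stage, at 144, 148 and 149 TPM and then 200, 182 and 201 TPM. Fbxo7 (0.22) and Ube2l6 (0.20) rose as well, whereas Xpo7, a nuclear exporter needed for late nuclear changes, was not called (0.03). The opposite direction was led by Hemgn, which encodes hemogen, a nuclear protein that GATA1 activates, at 11.3, 12.4 and 10.7 TPM and then 3.86, 3.05 and 3.89 TPM (-1.44 ± 0.12). Trim10, another gene of erythroid maturation, fell by 0.18.

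**Figure D4:**
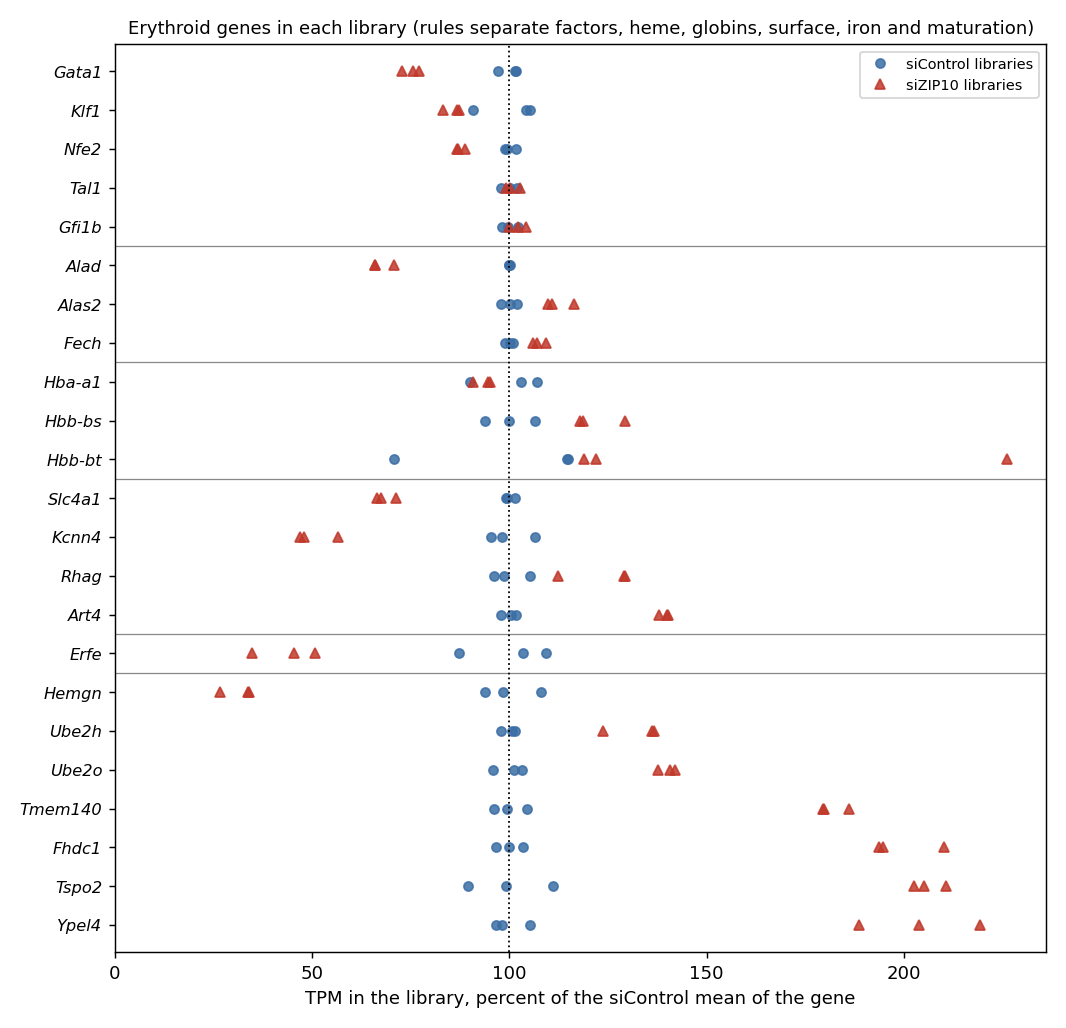
TPM of erythroid genes in each library as a percent of the siControl mean (horizontal axis, from 0), with siControl libraries as blue circles and siZIP10 libraries as red triangles. Hemgn and Erfe lie lowest, at means of 31.4% and 43.7%, Tspo2 and Ypel4 highest, at 206% and 204%, and Tal1 and Gfi1b overlap between groups.

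Autophagy genes rose more often than they fell, 18 against 1 of 36 tested, with a median of 0.08. Sqstm1, the cargo receptor p62, was at 644, 673 and 670 TPM in siControl and 936, 895 and 899 TPM in siZIP10 (0.46 ± 0.03, adjusted p 1.32e-06), and the receptor Calcoco1 rose to 135% of control. Bnip3, a mitophagy receptor, rose by 0.41, while its relative Bnip3l, also called NIX, which clears mitochondria from reticulocytes, was not called (-0.02). The lysosomal proteases Ctsb (0.30), Ctsd (0.26) and Ctsl (0.24) rose. Of the conjugation and initiation machinery, Atg3, Atg5, Atg7, Becn1 and Atg16l1 were not called, with changes between -0.01 and 0.02.

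Of 21 erythropoietin signalling genes 8 rose and 2 fell, against 13.1% and 17.5% of all tested genes. Those counts were 5 higher and 1 lower without siControl replicate 3. Pim1, a STAT5 target kinase, was at 630, 669 and 638 TPM in siControl and 752, 747 and 755 TPM in siZIP10, and the adaptor Gab2 rose by 0.34. The receptor gene Epor (0.01) and Stat5a (0.03) were not called. Of 15 progenitor genes that erythroid maturation turns down, 4 rose and 2 fell, against the same shares of all genes. Gata2 fell to 83.2% of control and Spi1, encoding PU.1, to 80.4%, while Hhex rose by 0.31. Kit, the stem cell factor receptor, was not called (0.15). Without siControl replicate 2, siControl replicate 3 or siZIP10 replicate 3 the higher count was 2.

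Most nuclear genes of the respiratory chain fell by small amounts. Of 76 tested, 50 fell and none rose, with a median of -0.17, and their summed level was 27116, 27221 and 27163 TPM in the siControl libraries and 24274, 24886 and 24448 TPM in siZIP10. The groups did not overlap. Ndufa4, a subunit of cytochrome c oxidase once assigned to complex I, stood apart at 377, 353 and 367 TPM and then 182, 194 and 188 TPM, 51.4% of control (-0.96 ± 0.03, adjusted p 1.37e-07). Ndufa5 (-0.43), Cyc1 (-0.35) and the ATP synthase gene Atp5b (-0.29) followed. Ndufa12, with a change of -0.82, was not called because its libraries spread from 22.7 to 53 TPM in siControl and from 16.3 to 34.7 TPM in siZIP10.

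Mitochondrial ribosomal protein genes were also lower, with 30 of 77 lower, none higher and a median of -0.13. The 83 tested cytosolic ribosomal protein genes were near the background: 8 were called higher and 12 lower, with a median of -0.02. Those counts were 4 higher without siControl replicate 2, 5 higher without siZIP10 replicate 1 and 7 lower without siControl replicate 3. Of the 13 proteins encoded in the mitochondrial genome, mt-Nd1 fell from 9507 ± 474 to 7550 ± 522 TPM. One other, mt-Nd2, was called lower (-0.21), but its change was 0.00 after quantile normalization, and its call was lost without siControl replicate 1 or 3, siZIP10 replicate 1 or any 1 of the 5 DTPA libraries. The ribosomal RNAs of the same genome rose: mt-Rnr1 was at 1714, 1609 and 1584 TPM and then 2343, 2538 and 2614 TPM.

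Many genes of protein turnover and synthesis were lower by small amounts. Of 35 proteasome genes 29 fell and 1 rose, with a median of -0.16, a summed level of 7308 to 7478 TPM in siControl and 6615 to 6798 TPM in siZIP10, and no overlap. Psma1, a subunit of the core ring, fell to 81.1% of control and Psmc5, of the regulatory particle, by 0.27 on the log2 scale. The gene that rose was Psmb10, a subunit of the immunoproteasome (0.19), and its call was lost without siControl replicate 1 or 2 or siZIP10 replicate 1 or 3. Of 20 aminoacyl-tRNA synthetases 13 fell and none rose (median -0.18), with Vars at 92.2, 94.8 and 98.0 TPM and then 59.2, 53.2 and 54.5 TPM, and Iars at -0.33. Of 35 ribosome biogenesis genes 13 fell, 8 without siZIP10 replicate 2. Dkc1, the pseudouridine synthase dyskerin, fell to 64.6% of control, while Npm1, nucleophosmin, rose by 0.19.

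Of 30 tested genes of endoplasmic reticulum chaperones and the unfolded protein response, 15 fell, 5 rose and 10 were not called (median -0.13). Hspa5, encoding the chaperone BiP, was at 159, 150 and 156 TPM in siControl and 123, 120 and 121 TPM in siZIP10, Pdia6 fell to 73.3% and Manf to 69.2% of control. Xbp1 was not called (0.00), and Derl1, of the degradation channel, rose by 0.31. Among 22 heat shock genes 9 fell and 3 rose, led by Stip1 (-0.38) and Hsp90aa1 (-0.27). Of 27 NRF2 targets 8 fell and 4 rose, the former including Gpx1, glutathione peroxidase, at 3546, 3688 and 3713 TPM and then 2915, 2996 and 2795 TPM, while Nqo1 (-0.02) and Srxn1 (-0.01) were not called. In the amino acid response 3 of 21 genes rose and 4 fell, Atf4 and Asns were not called (0.01 and -0.09), and the lower count was 2 without siControl replicate 3, siZIP10 replicate 2 or siZIP10 replicate 3. All counts of this paragraph stand against 13.1% of all tested genes called higher and 17.5% lower. Those of the amino acid response were near these shares.

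Of 19 tested interferon and RNA sensing genes 7 rose and 2 fell, with a median of 0.16. B2m, the light chain of MHC class I, was at 2505, 2416 and 2322 TPM in siControl and 3266, 3367 and 3416 TPM in siZIP10 (0.47 ± 0.03, adjusted p 2.27e-06), and the heavy chain gene H2-D1 rose by 0.35. Bst2, an antiviral membrane tether, rose to 161% of control and Irf9 by 0.34. Stat2 (-0.01), Irf7 (0.02) and Eif2ak2 (0.00) were not called. The lower count was 1 without siControl replicate 3 or siZIP10 replicate 2.

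Metabolic genes were mixed, and their counts stand against 13.1% of all tested genes called higher and 17.5% lower. Of 21 glycolysis genes 4 rose and 7 fell: Aldoc, an aldolase, went from 3.02, 2.73 and 3.46 TPM to 6.23, 5.64 and 6.64 TPM, Pgam1 (0.41) and Pkm (0.30) rose, and Pfkfb4, which sets the level of a glycolytic activator, fell to 69.7% of control. The lower count was 3 or 4 without siControl replicate 2 or 3, siZIP10 replicate 2 or 3, or siZIP10 plus DTPA replicate 1 or 3. Of 28 cholesterol and fatty acid genes 10 fell and 2 rose, with 6 lower without siControl replicate 3 or siZIP10 replicate 1 and 1 higher without replicate 2 or 3 of either group. In one-carbon metabolism Shmt2, the mitochondrial serine enzyme, fell by 0.60 on the log2 scale, and of 22 polyamine and purine genes 8 fell, with Odc1 at -0.48 and Impdh2 at -0.57, and 3 rose. Of 252 numbered zinc finger genes 39 rose and 14 fell, against 13.1% and 17.5% of all tested genes. The share that rose was near that of all genes, and the share that fell was below it. Without siZIP10 replicate 1, 7 fell, and 8 fell without siControl replicate 3 or siZIP10 replicate 2.

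Outside the lists, several of the largest rises were in genes of signalling and structure. Grik5, a kainate receptor subunit, was at 19.5, 22.1 and 21.8 TPM in siControl and 37.5, 38.6 and 42.7 TPM in siZIP10. Camk1d, a calmodulin-dependent kinase, was at 45.0, 45.4 and 45.6 TPM and then 79.6, 78.0 and 84.4 TPM, and Nrgn, which binds calmodulin, rose to 168% of control. Vim, encoding the intermediate filament protein vimentin, was at 17.6, 16.9 and 18.3 TPM and then 30.3, 28.3 and 30.1 TPM. In these genes no library of one group reached the other. Cdc14b (0.80), Eya1 (0.75), Mgarp (0.73) and Pros1 (0.67) rose as well. The largest fold, that of the small nucleolar RNA Snord42b (2.71), rested on 2 recovered reads over the 3 siControl libraries and 15 over the 3 siZIP10 libraries. Among falls outside the lists, Mtfr2, a regulator of mitochondrial shape, went from 12.4 ± 1.9 to 3.80 ± 0.54 TPM, and Csf2rb2, a receptor chain for interleukin 3, from 2944, 2885 and 3086 TPM to 2319, 2196 and 2377 TPM.

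The log2 changes of the same siRNA contrast in DTPA-treated cultures used none of these 6 libraries. Its calls are not separate from them, because all 4 groups shared the estimate of the spread. In that contrast 53.1% of genes were called, 21.3% higher and 31.7% lower, with 2 siControl plus DTPA libraries. That balance depended on the scaling: 2426 genes were higher and 3611 lower as deposited, 3051 and 3173 after median-of-ratios scaling, and 3267 and 2879 when TPM was rescaled to protein-coding genes of the nucleus. Of the 1987 genes lower without DTPA, 1516 were called lower with it and 81 higher. Of the 1493 higher genes, 832 were called higher and 257 lower. Across the 11379 genes the log2 changes correlated at r = 0.493; genes are not independent replicates, and the siZIP10 plus DTPA libraries also differed in makeup, with mitochondrial ribosomal RNA at 1.44% to 1.45% of TPM, whose part was not tested.

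Most division genes fell in both media, and for many the fall was larger with DTPA. Of the 174 genes of the 7 lists, 158 were lower without DTPA and 159 with it. The difference between media, tested as an interaction, was called for 32.4% of all tested genes (12% higher, 20.4% lower) and for 108 of these 174 genes, 100 lower and 8 higher. After rescaling to nuclear protein-coding genes the interaction called 2124 of all genes higher and 1786 lower, against 1369 and 2318, while of the 174 genes 98 were lower and 14 higher. The median change of the mitotic cyclins and kinases was -1.17 without and -2.24 with DTPA, and for replication genes -0.63 and -0.75. Of the 35 tested maturation genes, 18 were higher and 4 lower without DTPA (median 0.12), against 6 higher and 18 lower with it (median -0.12). The interaction was called lower for 25 of them and higher for 2. Among them, Ypel4 changed by 1.01 without and 0.02 with DTPA and Tspo2 by 0.98 and 0.03, with the interaction called for both, while Fhdc1 changed by 0.97 and 1.01. The p53 list went from 14 higher and 3 lower to 6 and 12, and the autophagy list from 18 and 1 to 9 and 13. These list counts stand against 13.1% of all tested genes called higher and 17.5% lower without DTPA. With DTPA the shares of all tested genes were 21.3% and 31.7%. Slc30a1 rose in both media, by 0.47 and 1.42, and Vim by 0.72 and 2.61, with the interaction called for each.

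Set against the chelated control, siZIP10 without DTPA had 1414 genes (12.4%) called higher and 957 (8.41%) called lower. Those counts were 935 and 434 without siControl plus DTPA replicate 1, 690 and 570 without replicate 2, and 0 and 0 with the repeated library kept under its label. Of the mitotic cyclins and kinases, 5 of 20 were lower in siZIP10 (median -0.22), against 20 of 20 relative to siControl. Cholesterol and fatty acid genes were higher in 20 of 28 and cytosolic ribosomal protein genes lower in 67 of 83. Of 4 metallothionein and MTF1 genes 2 were higher and none lower.

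**Figure D5:**
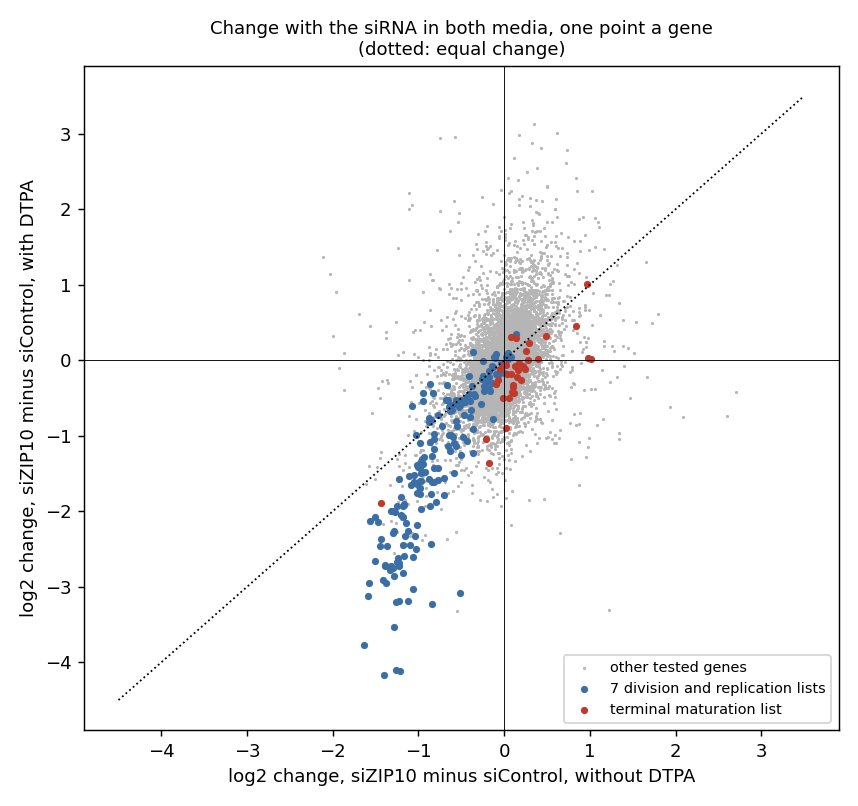
Log2 change with the siRNA with DTPA (vertical) against without DTPA (horizontal), one point for each of 11379 tested genes, with the 174 genes of the 7 division and replication lists in blue and the 35 terminal maturation genes in red. Many blue points fall below the dotted line of equal change, to -4.17 for Hmmr, and Ypel4 and Tspo2 lie near 0 on the vertical axis.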

How the data were processed

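RNA was measured in 12 deposited libraries from stranded poly(A) sequencing, and 11 were used here. The authors deposited TPM values per gene; per the submitters' processing notes the tools were Trimmomatic 0.33, FastQC, HISAT2 2.1.0, featureCounts and edgeR, with the mm10 build. The sources used here do not state their order, settings, annotation or use of strand, so reads of overlapping or antisense genes may not be told apart. In one file the values equal those of siZIP10 replicate 1, and it was left out; the planned design had 3 libraries in that group, siControl plus DTPA.

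The test took genes whose TPM averaged 1 or more across the 11 libraries, on log2(TPM + 1) with limma 3.58.1 (R 4.3.3), with a trend, 1 mean per group and Benjamini-Hochberg adjustment over all 11379 genes at 0.05. All 4 groups shared the spread. Low values were whole multiples of 1 read (98.9% to 99.1% within 0.1 read in the 6 libraries), and the recovered reads gave depths and, as an alternative, a voom fit. That fit called 1828 genes higher and 2210 lower. Figures were drawn with matplotlib 3.10.9, and tables were made with pandas 2.3.3 and numpy 2.4.6 under Python 3.11.15. The fit was also run on simulated siControl and siZIP10 libraries with few genes changed. That setting differs from the model of all 4 groups, so the run does not test the calls reported here.

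Genes named are members of the gene lists, and outside them the 25 largest rises and 25 largest falls among called genes of at least 5 TPM without overlap, and the 10 largest differences in TPM. The comparison and the lists were chosen with earlier results of these data known. Alternatives were other pseudocounts, filters, scalings, a replicate block, left-out libraries and the repeated library kept. Sequences are RefSeq's, on GRCm38.p6. Ahsp, Hbb-b1 and Hbb-b2 were not analysed here, and some genes are not reported here.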

Additional observations from a re-analysis of the deposited data

Results flagged for a closer look

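The siRNA effect was set against the same effect in DTPA-treated cultures by an interaction term, and the named genes below differed between the 2 media at an adjusted p under 0.05 (limma). Values are log2 effects with DTPA minus without, and the DTPA control had 2 libraries. The genes were picked for their change without DTPA or for their place in a gene list.

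Among 22 division genes every difference was negative, so the fall was larger with DTPA.
The difference was -2.77 for Hmmr (siRNA change -1.40 without and -4.17 with DTPA), -2.14 for Ccnb2 (siRNA change -1.64 without and -3.77 with DTPA), -1.57 for Cdc20 (siRNA change -1.38 without and -2.95 with DTPA) and -1.53 for Birc5 (siRNA change -1.59 without and -3.12 with DTPA). It was -1.50 for Bub1b (siRNA change -1.42 without and -2.92 with DTPA), -1.45 for Bub1 (siRNA change -1.30 without and -2.75 with DTPA), -1.45 for Aurka (siRNA change -1.33 without and -2.78 with DTPA) and -1.40 for Aspm (siRNA change -1.33 without and -2.73 with DTPA). The value was -1.37 for Plk1 (siRNA change -1.58 without and -2.96 with DTPA), -1.33 for Spag5 (siRNA change -1.39 without and -2.73 with DTPA), -1.33 for Cdca3 (siRNA change -1.39 without and -2.72 with DTPA) and -1.15 for Kif2c (siRNA change -1.51 without and -2.65 with DTPA). The interaction gave -1.09 for Kif11 (siRNA change -1.37 without and -2.46 with DTPA), -1.0 for Kif14 (siRNA change -1.45 without and -2.46 with DTPA), -0.99 for Espl1 (siRNA change -1.29 without and -2.29 with DTPA) and -0.93 for Cdk1 (siRNA change -1.43 without and -2.36 with DTPA). It came to -0.75 for Rad51ap1 (siRNA change -1.41 without and -2.16 with DTPA), -0.70 for Arhgef39 (siRNA change -1.30 without and -2.0 with DTPA), -0.68 for Aurkb (siRNA change -1.47 without and -2.15 with DTPA) and -0.67 for Cenpf (siRNA change -1.32 without and -1.99 with DTPA). The estimate was -0.57 for Kif20a (siRNA change -1.56 without and -2.13 with DTPA) and -0.57 for Pbk (siRNA change -1.51 without and -2.08 with DTPA).

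Among zinc genes the difference was -0.70 for Slc39a10 (siRNA change -1.16 without and -1.86 with DTPA), 0.95 for Slc30a1 (siRNA change 0.47 without and 1.42 with DTPA) and 0.41 for Mt1 (siRNA change 0.23 without and 0.64 with DTPA). The scale of log2(TPM + 1) understates changes at the low level of Slc39a10. Without DTPA its change was -1.93 with a pseudocount of 0.1 and -2.06 in the voom fit. The change with DTPA on those scales is not reported here, so the -0.70 alone does not show that the knockdown was stronger with DTPA. Among erythroid genes the difference was -0.98 for Ypel4 (siRNA change 1.01 without and 0.02 with DTPA), -0.95 for Tspo2 (siRNA change 0.98 without and 0.03 with DTPA), -0.38 for Tmem140 (siRNA change 0.84 without and 0.45 with DTPA), -0.42 for Hbb-bs (siRNA change 0.29 without and -0.13 with DTPA) and -0.31 for Ftl1 (siRNA change 0.16 without and -0.16 with DTPA). In the mitochondrial genome it was 1.29 for mt-Rnr1 (siRNA change 0.61 without and 1.90 with DTPA) and 0.29 for mt-Nd1 (siRNA change -0.33 without and -0.04 with DTPA). For the small nucleolar RNA it was -3.12 for Snord42b (siRNA change 2.71 without and -0.41 with DTPA), which rests on 2 and 15 recovered reads in the siControl and siZIP10 groups.

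The other genes were as follows. The difference was -1.07 for Gpx1 (siRNA change -0.33 without and -1.40 with DTPA), -0.62 for Gm42814 (siRNA change 0.93 without and 0.31 with DTPA), -0.27 for B2m (siRNA change 0.47 without and 0.20 with DTPA) and 0.19 for Camk1d (siRNA change 0.82 without and 1.01 with DTPA). It was 0.28 for Grik5 (siRNA change 0.88 without and 1.16 with DTPA), 0.36 for Eya1 (siRNA change 0.75 without and 1.11 with DTPA), 0.53 for Gm43197 (siRNA change 0.73 without and 1.26 with DTPA) and 0.64 for Mgarp (siRNA change 0.73 without and 1.37 with DTPA). The value was 0.70 for Gm6093 (siRNA change 0.89 without and 1.58 with DTPA), 0.98 for C430002N11Rik (siRNA change 0.92 without and 1.90 with DTPA) and 1.89 for Vim (siRNA change 0.72 without and 2.61 with DTPA).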

How the results depend on the processing

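Under 23 alternatives, 514 of 714 called genes of the lists or of the naming rule kept their call and 200 lost it at least once, 151 of them without at least 1 library. One direction was lost: mt-Nd2 was at 0.00 after quantile normalization, with an adjusted p of 1; the cause was not tested. The 1493 higher and 1987 lower genes without DTPA stayed within 1.5-fold under every alternative run, and leaving out 1 library at a time gave 1122 to 1450 and 1562 to 1973. With the repeated library kept as labelled, Slc39a10 was at -1.16 with an adjusted p of 0.325. The interaction called 2124 genes higher and 1786 lower, against 1369 and 2318, after rescaling to nuclear protein-coding genes; the cause was not tested, and it was not run with the compared groups only, since it needs all 4. The direct comparison of siZIP10 with siControl plus DTPA called 1414 genes (12.4%) higher and 957 (8.41%) lower, 0 and 0 with the repeated library kept, and 690 to 1423 and 434 to 955 when 1 library was left out (935 and 434 without siControl plus DTPA replicate 1, 690 and 570 without replicate 2).

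Same-numbered siControl and siZIP10 libraries did not deviate together (r = -0.012, 0.061 and 0.02 for numbers 1, 2 and 3), so the numbers were not taken as pairs. With the replicate number as a block the main comparison called 1498 genes higher and 1972 lower. Read depth limits genes of low level, where 1 read is a large share of the value.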
